A study of Equus caballus with 78 samples.

Results

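The comparison described here set the 4 synovial fluid libraries of the joint labelled OA (osteoarthritis) at time point 56 against the 4 libraries of the joint labelled CTRL at the same time point. They are 8 of the 78 small RNA libraries of the series and 8 of its 52 synovial fluid libraries, and they were chosen by the joint and time point in their labels. Each of horses 2, 4, 6 and 8 gave 1 library of each joint, so the horses are the replicates and the joints are paired within a horse. The RNA of all 8 came from extracellular vesicles, small membrane-wrapped packets shed by cells into the fluid around them. The labels call the series an equine model of osteoarthritis, but give no unit for the time points (0, 10, 35, 42, 49, 56 and 63), no treatment, no way in which the disease was brought about, and no age, sex or breed of the horses.

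MicroRNAs are short RNAs that pair through a seed near their 5′ end with messenger RNAs and repress them. In a joint, vesicles come from the synovial lining, cartilage and blood cells that enter the fluid, and their microRNAs reflect a mixture of these sources. Several families are well known by source: the miR-199 and miR-10 families in fibroblasts and other mesenchymal cells, miR-140 in cartilage, miR-451, miR-486-5p and miR-16 in red blood cells, and miR-126 in endothelial cells and platelets. In vesicle RNA, fewer vesicles of a source and less of a microRNA per vesicle cannot be told apart.

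The OA libraries of horses 2, 4, 6 and 8 held 80090, 21128, 36534 and 43113 microRNA reads, against 17952, 13515, 11341 and 128178 in the CTRL libraries of the same horses. Library totals ran from 5837319 to 9976257 reads in the OA joint and from 4736012 to 10800232 in the CTRL joint. MicroRNA thus made up 0.670 ± 0.440% of an OA library and 0.50 ± 0.459% of a CTRL library (SD, n = 4 each), with the highest CTRL share in horse 8. The two-sided exact permutation p, which leaves out the pairing, was 0.457. The difference was 0.17 percentage points, and -0.11 without horse 2. A number in the deposited file names, read here as the sequencing lane, differs between the joints. All 4 OA libraries and the CTRL library of horse 8 carry lane 2, and the CTRL libraries of horses 2, 4 and 6 carry lane 1. Lane and joint can therefore be told apart within time point 56 only through the pair of horse 8, and fits with lane as a term or with lane 2 alone, which leaves 1 CTRL library at this time point, are given beside the microRNAs on which the account turns. Of 690 microRNA names, 144 had a read in the 8 libraries and 37 had a read in all 8. A read in the OA joint was seen for 123 names and a read in the CTRL joint for 113.

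Levels are given as CPM, read counts scaled to a common sum of microRNA reads, without regard to length, since mature microRNAs are of nearly the same length. The 10 microRNAs with the highest mean level over the 8 libraries were let-7c, miR-26a, miR-10b, miR-199a-3p, miR-199b-3p, miR-486-5p, miR-21, miR-22, miR-92a and let-7a. miR-26a, a widely expressed microRNA that restrains growth genes, stood at 130123 ± 15144 CPM in the OA joint and 122798 ± 28817 CPM in the CTRL joint (SD, n = 4 each). let-7c, of the let-7 family that marks differentiated cells, stood at 127927 ± 14418 CPM in the OA joint and 157650 ± 23914 CPM in the CTRL joint. miR-10b, whose gene lies in a HOX cluster, stood at 107068 ± 28661 CPM in the OA joint and 126507 ± 19399 CPM in the CTRL joint. For each of these 3 the difference between the joints was smaller than the sum of the spreads between horses, and the groups overlapped. That of let-7c was larger than the spread of either joint alone, with lower OA levels in 3 of 4 horses. Its log2 fold was -0.60 (SE 0.55, edgeR adjusted p = 0.804).

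miR-199a-3p, a microRNA of mesenchymal cells, had 101186, 41272, 84661 and 81066 CPM in the OA joints of horses 2, 4, 6 and 8, against 75479, 48835, 95582 and 66899 CPM in the CTRL joints. The counts of miR-199b-3p were equal to it in all 8 libraries, so the files give this pair 1 measurement under both names. miR-21, which is induced in inflammation and fibrosis, stood at 40278 ± 11650 CPM in the OA joint and 37220 ± 10368 CPM in the CTRL joint. let-7a stood at 22036 ± 5085 CPM in the OA joint and 20791 ± 5256 CPM in the CTRL joint, and miR-22 at 27168 ± 6135 CPM in the OA joint and 22673 ± 16560 CPM in the CTRL joint. The log2 folds of miR-21, let-7a, miR-22, miR-26a and the miR-199 pair lay between -0.22 and -0.09 with standard errors of 0.50 to 0.80, and their sign turned with the scaling. For each of them the difference between the joints was within the spread between horses.

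The main test asked which microRNAs differ between the joints at this time point. It was edgeR's quasi-likelihood test on the counts, fitted over all 52 synovial fluid libraries in 14 groups of joint and time point. This fit left out the horse, so it did not use the pairing and treated libraries of the same horse as independent. Of 139 microRNAs tested, 0 passed a Benjamini-Hochberg adjusted p of 0.05 (0% of those tested), and 14 had an unadjusted p under 0.05 (10.1%). Of these 14, 11 had a positive log2 fold, higher in the OA joint (7.91% of those tested), and 3 a negative one (2.16%). Among the 14, 10 had no read at all in one of the joints, 5 had a read in 1 of the 8 libraries, and 2, miR-16 and miR-25, had a read in all 8. DESeq2 called 19 of 139 at an adjusted p of 0.05, 13 higher and 6 lower in the OA joint, of which 16 had no read in one joint and 12 were among the 14. limma on log2 CPM called 1, miR-16.

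**Figure D1:**
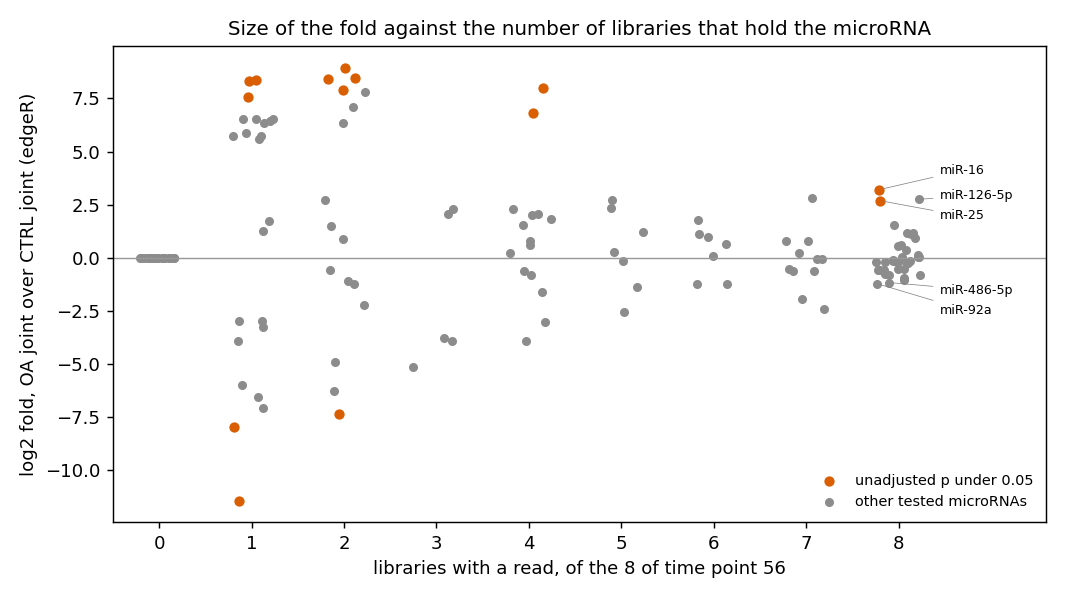
Log2 fold of OA over CTRL joint at time point 56 (vertical axis, edgeR) against the number of the 8 libraries with a read (horizontal axis, points spread sideways within a number), 1 point per tested microRNA. Folds beyond 5 stand at microRNAs read in at most 4 libraries, while 27 of the 37 microRNAs read in all 8 lie within 1 of 0.

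The size of a fold went with how few libraries held the microRNA. Among the 37 microRNAs with a read in all 8 libraries, the log2 folds ran from -1.21 to 3.21 with a median of -0.16. Of these, 27 lay within 1 of 0, 7 were at 1 or above and 3 were at -1 or below. The 7 were miR-16, miR-126-5p, miR-25, miR-423-3p, miR-107a, miR-103 and miR-23a, and the 3 were miR-92a, miR-486-5p and miR-28-3p. Of all 139 tested, 17 had no read in the 8 libraries. With TMM scaling, which sets libraries to a common middle, 64 folds were positive and 58 negative, and the median of all 139 fell on the unread ones, at 0. With no scaling beyond the microRNA sum that median was 0.11. For the 37 read in all 8, the median moved from -0.16 with TMM scaling to 0.11 with no scaling. Folds near 0 are therefore read only relative to that shift.

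miR-16, a red blood cell microRNA that in human cells represses cell cycle genes and BCL2, had the smallest p. It stood at 8890, 17512, 12208 and 6866 CPM in the OA joints of horses 2, 4, 6 and 8, against 2117, 518, 88.2 and 1326 CPM in the CTRL joints. Every OA library was above every CTRL library, and the OA joint was higher in 4 of 4 horses. The reads behind these levels were 712, 370, 446 and 296 in the OA joint, against 38, 7, 1 and 170 in the CTRL joint. The 95% Wilson interval, which covers counting error only, reached from 6129 to 7690 CPM for the lowest OA library, that of horse 8, and from 1543 to 2904 CPM for the highest CTRL library, that of horse 2. The means were 11369 ± 4650 CPM in the OA joint and 1012 ± 898 CPM in the CTRL joint (SD, n = 4 each).

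The log2 fold of miR-16 was 3.21 (SE 0.93, edgeR adjusted p = 0.104, unadjusted p = 0.000751), which did not pass the adjusted threshold. It passed with no scaling beyond the microRNA sum (adjusted p = 0.0336), in limma (0.0407) and in DESeq2 (0.000703). It did not pass with the horse as a replicate block. Over the 17 settings tried, which include lane 2 alone, its log2 fold ran from 2.30 to 4.12 without a change of sign. In the pair of horse 8, where both libraries carry lane 2, the levels were 6866 CPM in the OA joint and 1326 CPM in the CTRL joint. With lane as a term in the fit the log2 fold was 2.30 (adjusted p = 0.478). In lane 2 alone, where the only CTRL library is that of horse 8, the log2 fold was 2.86. The part of the lane in the 3 pairs that differ in it was not tested.

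**Figure D2:**
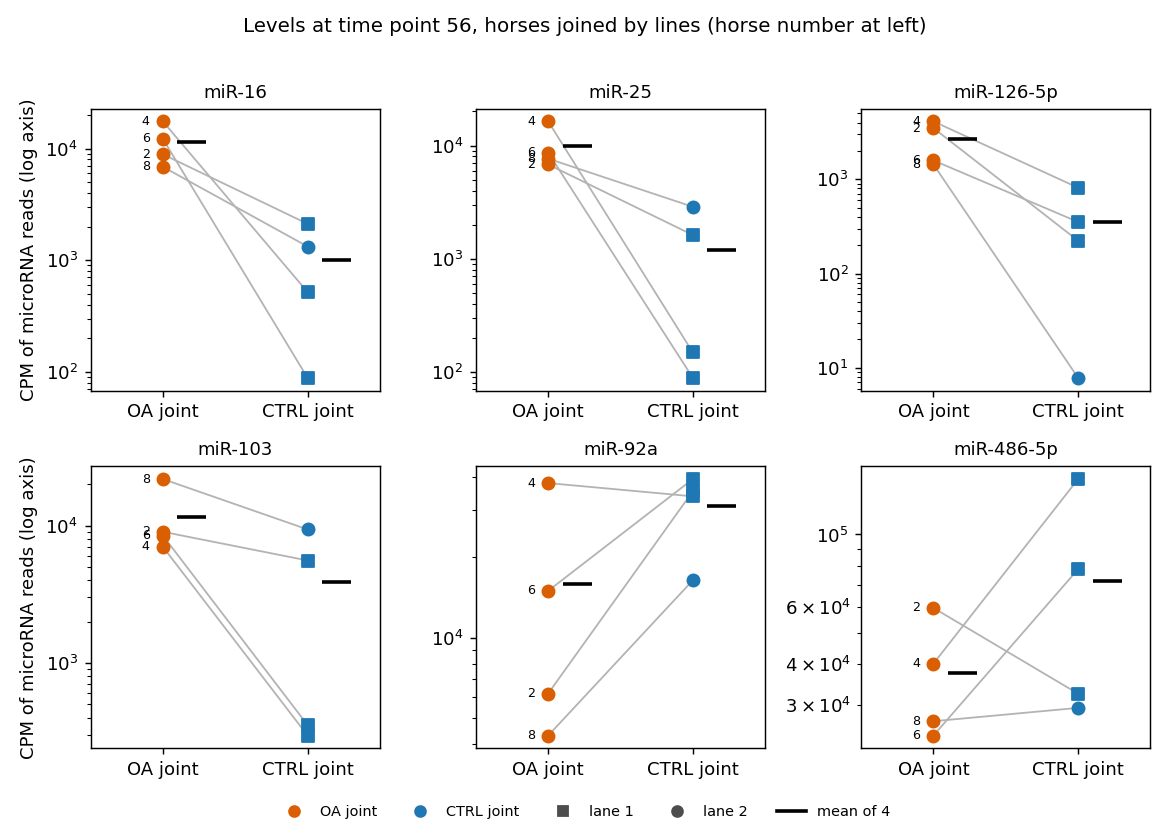
Levels of 6 microRNAs at time point 56 in CPM of microRNA reads (log axis), OA joint at left and CTRL joint at right, with the 2 joints of a horse joined by a line, the marker shape giving the lane and the bar the mean of 4. miR-16, miR-25 and miR-126-5p lie above the CTRL libraries in all 4 OA libraries, miR-103 is higher in the OA joint of each horse with overlap, and miR-92a and miR-486-5p overlap.

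miR-25, of the miR-106b to miR-25 cluster, shows the same order of joints. Its levels were 6805, 16329, 8649 and 7654 CPM in the OA joints of horses 2, 4, 6 and 8, against 1615, 148, 88.2 and 2871 CPM in the CTRL joints. The lowest OA library was thus above the highest CTRL library, although the CTRL values of horses 4 and 6 rest on 2 reads and 1 read. The log2 fold was 2.69 (SE 1.22, edgeR adjusted p = 0.430), 2.02 with lane as a term and 1.51 in lane 2 alone. miR-25 shares its seed with miR-92a, miR-92b and miR-363. The most abundant of these, miR-92a, had the opposite sign, with 6193, 37817, 14972 and 4314 CPM in the OA joints of horses 2, 4, 6 and 8, against 35261, 33740, 39150 and 16399 CPM in the CTRL joints. The log2 fold of miR-92a was -1.21 (SE 0.71, edgeR adjusted p = 0.430), and it was lower in the OA joint in 3 of 4 horses. It was -1.69 with lane as a term and -0.29 in lane 2 alone. miR-92b, at 2004 ± 2148 CPM in the OA joint and 332 ± 663 CPM in the CTRL joint, had no read in 1 OA and 3 CTRL libraries (log2 fold of 2.06, SE 2.36), and miR-363 had 45 reads, all in the OA library of horse 2.

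miR-126-5p, one strand of a hairpin within the endothelial gene EGFL7, was the third microRNA with every OA library above every CTRL library. Its levels were 3496, 4118, 1588 and 1438 CPM in the OA joints of horses 2, 4, 6 and 8, against 223, 814, 353 and 7.80 CPM in the CTRL joints. All of its CTRL levels were low, and the lowest, that of horse 8, was 1 read in the deepest of the 8 libraries. The log2 fold was 2.75 (SE 1.77, edgeR adjusted p = 0.499). It was 4.21 with lane as a term and 7.91 in lane 2 alone, where the only CTRL library is that of horse 8 with its 1 read, and it ran from 2.39 to 7.91 over the 17 settings tried. The other strand, miR-126-3p, overlapped between the joints at 1636, 13347, 2409 and 11018 CPM in the OA joint against 8913, 814, 617 and 5110 CPM in the CTRL joint, with a log2 fold of 0.56 (SE 1.21, edgeR adjusted p = 1.00).

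These 3 were the only ones of 139 tested microRNAs with no overlap in CPM (2.16%), and 0 had every OA library below every CTRL library (0%). At the other time points, counted the same way, OA libraries lay above CTRL libraries for 0, 5, 0, 3, 0 and 10 microRNAs at time points 0, 10, 35, 42, 49 and 63, and below for 2, 4, 1, 0, 0 and 3. Time points 10 and 63 had 3 horses each, where fewer values need to be in order. The count of 3 at time point 56 equals that of time point 42.

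Counting horses instead of libraries, 9 microRNAs were higher in the OA joint in 4 of 4 horses (6.47%) and 2 were lower in 4 of 4 (1.44%). Beside the 3 above, the 9 held miR-27a, miR-103, miR-107a, miR-744, miR-98 and miR-199b-5p. miR-103, encoded like miR-107a within a pantothenate kinase gene, had 9015, 7005, 8458 and 21826 CPM in the OA joints of horses 2, 4, 6 and 8, against 5570, 296, 353 and 9378 CPM in the CTRL joints. Its CTRL levels were low in horses 4 and 6, the CTRL level of horse 8 lay among the OA levels, and the log2 fold was 1.16 (SE 0.99, edgeR adjusted p = 0.768). It was 0.83 with lane as a term and turned to -0.11 in lane 2 alone. miR-107a had the same counts as miR-103 in 7 of 8 libraries and differed by 3 reads in the other, so both names carry nearly the same reads.

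miR-27a, of a cluster with miR-23a and miR-24, stood at 2210, 10649, 1259 and 5984 CPM in the OA joints of horses 2, 4, 6 and 8, against 390, 0, 265 and 1475 CPM on the CTRL side (log2 fold of 2.81, SE 2.03, edgeR adjusted p = 0.653). Its cluster partner miR-23a was higher in the OA joint in 2 of 4 horses (log2 fold 1.12, SE 0.99), and miR-24 in 2 of 4 (0.10, SE 1.31). The 2 that were lower in the OA joint in every horse were miR-28-3p and miR-99b. miR-28-3p, encoded in the LPP gene, had 11287, 4733, 6049 and 8582 CPM in the OA joints of horses 2, 4, 6 and 8, against 19942, 8287, 11904 and 11351 CPM on the CTRL side (log2 fold of -1.03, SE 1.30, edgeR adjusted p = 1.00). miR-99b, clustered with let-7e and miR-125a, averaged 6321 ± 3092 CPM in the OA joint and 10374 ± 2659 CPM on the CTRL side (log2 fold of -0.97, SE 1.53, edgeR adjusted p = 1.00). Both differences lay within the error of the fit. On TMM-scaled CPM 7 were higher in 4 of 4 horses, without miR-744 and miR-199b-5p, and 4 were lower, with miR-10b and miR-30d added and miR-99b without overlap.

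The design also allows the difference between the joints at time point 56 to be set against the difference at the other time points. For miR-16 that difference of differences was a log2 of 3.89 (SE 1.01, edgeR adjusted p = 0.0249), the only 1 of 139 that passed (0.719%), with 5 at an unadjusted p under 0.05 (3.6%). Many of the 139 could not pass here. For microRNAs with no read in whole groups of joint and time point the contrast was often not estimable, as for miR-8993 (SE 36447), miR-145 (SE 17272) and miR-30c (SE 9559). The shares are therefore over more microRNAs than this contrast could call. With the horse as a replicate block 4 passed, namely miR-16 (4.10, adjusted p = 0.0174), miR-215 (12.25, adjusted p = 0.0276), miR-25 (4.08, adjusted p = 0.0276) and miR-342-3p (12.37, adjusted p = 0.0330). With lane as a term 0 passed, and miR-16 stood at 2.99 (adjusted p = 0.610). The call of miR-16 was also lost without horse 4 (3.35, adjusted p = 0.465) and without horse 6 (3.48, adjusted p = 0.331).

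Against the difference at time point 0 alone, 0 of 139 passed in edgeR (0%), and 17 had an unadjusted p under 0.05 (12.2%), 13 of them positive (9.35%) and 4 negative (2.88%). Here too some could not be estimated, such as miR-218 (SE 18989.5) and miR-211 (SE 16213.7). The smallest adjusted p there was 0.0697, for miR-342-3p, and miR-16 stood at 3.44 (SE 1.24, adjusted p = 0.178). These comparisons share the 8 libraries of time point 56.

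**Figure D3:**
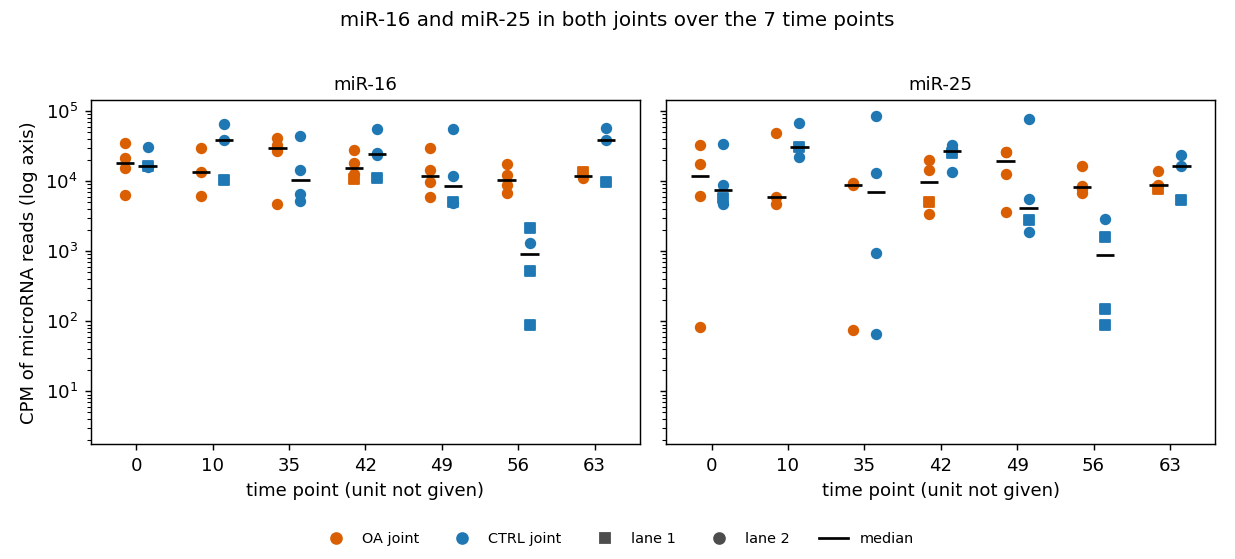
Levels of miR-16 (left) and miR-25 (right) in CPM of microRNA reads (log axis) in OA and CTRL joint libraries at the 7 time points, OA left of CTRL at each, with lane by marker shape and bars at medians. The CTRL libraries of time point 56 hold at most 2117 CPM of miR-16, less than every other CTRL library, while the OA libraries of time point 56 lie among those of the other time points.

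Level by level, the OA libraries of time point 56 did not stand apart in miR-16. They held 6866 to 17512 CPM, within the 4712 to 41569 CPM of the 22 OA libraries of the other time points (median 14038). The CTRL libraries of time point 56 held 88.2 to 2117 CPM, all below the lowest of the 22 CTRL libraries of the other time points, which held 4867 to 66104 CPM (median 16505). miR-16 was the only 1 of 139 microRNAs whose 4 CTRL libraries of time point 56 all lay below every other CTRL library (0.719%), and 0 lay above (0%). A microRNA without a read in any 1 of the other CTRL libraries, such as miR-126-5p, miR-342-3p or miR-215, could not lie below them all. The share is thus over microRNAs of which many could not meet the criterion. The low CTRL levels of miR-16 are also those behind its small p. In the OA joint 0 of 139 lay outside in either direction, with the same limit for lying below. The 5 CTRL libraries of other time points that carry lane 1 held 5106 to 16697 CPM of miR-16 (median 10548), all above the CTRL libraries of time point 56 of either lane.

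By time point, the medians of miR-16 in the OA joint were 18529, 13557, 30149, 15660, 12067, 10549 and 11865 CPM at time points 0, 10, 35, 42, 49, 56 and 63. In the CTRL joint they were 16505, 38950, 10599, 24532, 8475, 922 and 38480 CPM in the same order. The OA joint was higher in 2 of 4, 1 of 3, 2 of 4, 1 of 4, 2 of 4, 4 of 4 and 1 of 3 horses, so time point 56 was the one at which all horses had the same order. In plasma of the same horses at time point 56, miR-16 stood at 432, 14690, 162 and 9371 CPM in horses 2, 4, 6 and 8.

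miR-25 had a like but looser pattern. Its CTRL libraries of time point 56 held 88.2 to 2871 CPM, against 66.8 to 85528 CPM in the 22 other CTRL libraries (median 14937), of which 4 lay below 2871 CPM. Its OA libraries of time point 56 held 6805 to 16329 CPM, within the 75.9 to 48870 CPM of the other OA libraries (median 9060). miR-126-5p overlapped more, with 7.80 to 814 CPM in the CTRL joint at time point 56, and with 7 of the 22 other CTRL libraries below 814 CPM.

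The remaining microRNAs with an unadjusted p under 0.05 were absent or nearly absent from one joint, and each had an edgeR adjusted p of 0.430. miR-342-3p, a lymphocyte microRNA, had 3484, 4118, 0 and 23.2 CPM in the OA joints of horses 2, 4, 6 and 8, against 0, 0, 0 and 7.80 CPM in the CTRL joints. That is 367 reads over the OA libraries against 1 read over the CTRL libraries, a ratio of the pooled CPM of 347 with an exact 95% counting interval of 61.9 to 13741. Most of the pooled CTRL depth is that of horse 8, whose OA library held 23.2 CPM. miR-215, a microRNA of intestine and liver, had 2035, 142, 0 and 1461 CPM in the OA joints of horses 2, 4, 6 and 8, against 0, 0, 0 and 7.80 CPM in the CTRL joints, or 229 reads against 1. Each was read in 3 of 4 OA libraries and was missing from the OA joint of horse 6. The log2 fold of miR-342-3p was 7.98, with 6.41 with lane as a term and 7.52 in lane 2 alone. That of miR-215 was 6.81, with 5.35 with lane as a term and 6.31 in lane 2 alone. The only CTRL library in lane 2 is that of horse 8, with 1 read of each.

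In CTRL libraries of other time points these 2 microRNAs ranged widely, miR-342-3p from 0 to 20080 CPM with a median of 2672, and miR-215 from 0 to 26334 CPM with a median of 1951. Being read in one library and not in the next was thus common for both. miR-192, a close relative of miR-215, had 163 reads, all in the OA library of horse 2, the same number as miR-215 had there, and none in the CTRL joint. The other tested microRNA of the liver and gut list, miR-122, had a negative log2 fold.

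Where a joint had no read, a fold is given only as a bound, from a floor of 3 reads over the 4 libraries and counting error alone. Reads are pooled over the libraries of a joint. The CTRL side of a bound is thus mostly horse 8, with 128178 microRNA reads against 11341 to 17952 in the other CTRL libraries. miR-30c, miR-145, miR-150 and miR-211 had no read in the OA joint of horse 8 either. For them the bound compares mostly across horses. miR-30c, of the miR-30 family that is abundant in epithelia and heart, had 2697 and 1067 CPM in the OA joints of horses 2 and 6 and none elsewhere, at least 61.3-fold higher in the OA joint. miR-218, encoded in the SLIT genes, had 3976 and 1763 CPM in the OA joints of horses 4 and 8, at least 38.5-fold higher. miR-145, a smooth muscle and mesenchymal microRNA, had 649 and 2053 CPM in the OA joints of horses 2 and 6, at least 30.5-fold higher. miR-150, of mature lymphocytes, had 3881 and 82.1 CPM in the OA joints of horses 4 and 6, at least 20.4-fold higher. None of these 4 was read in more than 2 of 4 OA libraries, and no horse carried all of them.

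Single libraries carried the rest. miR-196b, encoded in a HOX cluster, had 4152 CPM in the OA joint of horse 8 alone, at least 43.0-fold higher in the OA joint, and miR-211, of pigment cells, had 3692 CPM in the OA joint of horse 4 alone, at least 18.7-fold higher. Of the 3 with a negative fold, miR-8993 had 27747 CPM, from 375 reads, in the CTRL joint of horse 4 alone, at least 132-fold lower in the OA joint. miR-1, of heart and skeletal muscle, had 2562 CPM in the CTRL joint of horse 2 alone, at least 16.2-fold lower in the OA joint. miR-487b, of the imprinted DLK1-DIO3 cluster, had 88.2 and 1256 CPM in the CTRL joints of horses 6 and 8 and none in the OA joint, at least 57.1-fold lower. A fold that rests on 1 or 2 horses of 4 cannot be set apart from the spread between horses here, and none passed the adjusted threshold in edgeR.

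Next in order of p, with an unadjusted p above 0.05, came miR-140-5p among those higher in the OA joint. This cartilage microRNA had 931 and 1809 CPM in the OA joints of horses 6 and 8 and no read in CTRL joints, at least 26.9-fold higher (edgeR adjusted p = 0.430). Its other strand, miR-140-3p, had 2135 and 4449 CPM in the OA joints of horses 2 and 4, against 891 and 671 CPM in the CTRL joints of horses 2 and 8 (log2 fold 1.82, SE 2.90, edgeR adjusted p = 1.00). The other 2 tested members of the chondrocyte list had negative log2 folds, miR-27b at -0.61 (SE 1.39) and miR-148a at -0.14 (SE 0.90). Next among those lower in the OA joint were miR-361-3p, miR-382, miR-324-5p and miR-184, with 24, 74, 98 and 64 reads in the CTRL joint and none in the OA joint. miR-223, the defining microRNA of neutrophils, had 2 reads over the OA libraries and 169 over the CTRL libraries, all 169 in horse 8. miR-196a had 2 reads, both in the CTRL joint of horse 4. miR-200a had 1 read in the OA joint and 90 reads in the CTRL joint, all in horse 8.

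The lists of microRNAs by source and family were described by counts, since 0 members of any of the 20 lists passed in edgeR. The 15 tested fibroblast and mesenchymal microRNAs took 36.0, 25.1, 32.7 and 28.0% of the microRNA reads in the OA joints of horses 2, 4, 6 and 8, against 29.4, 24.0, 36.2 and 32.7% in the CTRL joints. This is the largest of the source lists in both joints, with both names of the miR-199 pair included, and its means lay close together, at 30.5 ± 4.84% in OA joints and 30.6 ± 5.20% in CTRL joints (SD, n = 4 each). Of the 15, 6 had a positive and 8 a negative log2 fold. Their median was -0.09, beside 0 for all 139, which falls on microRNAs without a read, and -0.16 for those read in all 8. Of the 15, 2 had an unadjusted p under 0.05, miR-145 and miR-218, where 10.1% of all tested microRNAs did. The 4 tested microRNAs of the chondrocyte list took 2.12 ± 0.55% in OA joints and 1.81 ± 0.38% in CTRL joints, most of it miR-148a.

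**Figure D4:**
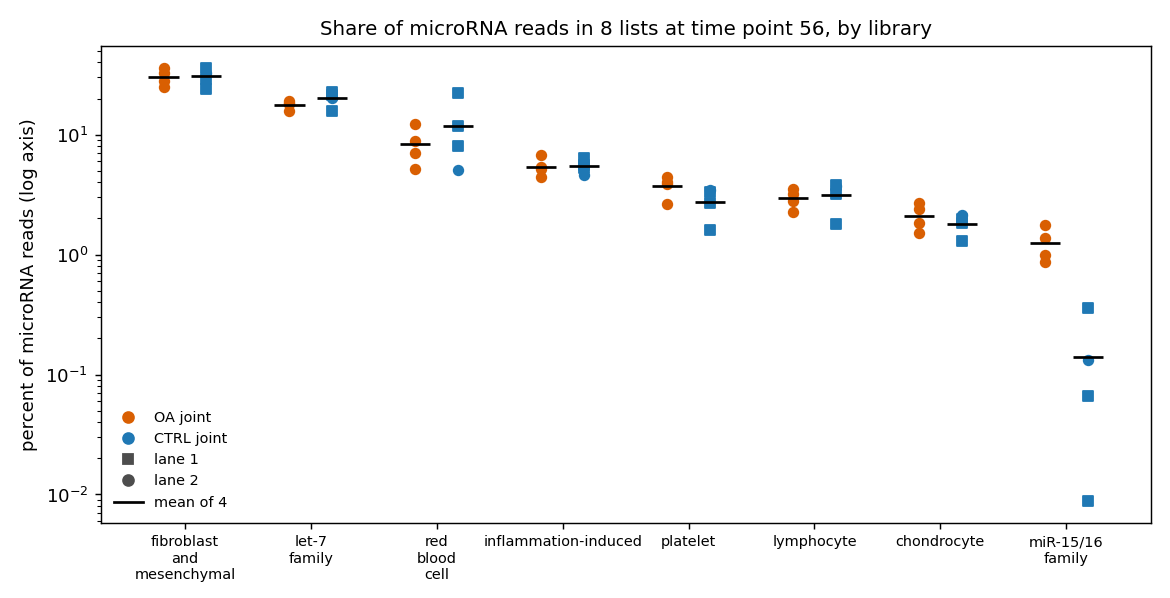
Share of the microRNA reads (percent, log axis) taken by 8 lists of microRNAs at time point 56, 1 point per library, OA left of CTRL, with lane by marker shape and bars at the mean of 4. The shares overlap between the joints in 7 of the lists, and in the miR-15/16 family the 4 OA libraries lie above the 4 CTRL libraries.

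miR-16 and miR-25 stand on the red blood cell list, but that list as a whole did not follow them. It took 8.90, 12.2, 7.03 and 5.22% of the microRNA reads in the OA joints of horses 2, 4, 6 and 8, against 7.98, 22.4, 11.8 and 5.06% in the CTRL joints, higher in the OA joint in 2 of 4 horses. Its defining member miR-451 had 7067, 10318, 10292 and 6611 CPM in the OA joints of horses 2, 4, 6 and 8, against 8356, 41731, 88.2 and 655 CPM on the CTRL side (log2 fold of -0.75, SE 1.09, edgeR adjusted p = 1.00). miR-486-5p, its most abundant member, had 59521, 40184, 24169 and 26744 CPM in the OA joints of horses 2, 4, 6 and 8, against 32475, 147910, 78300 and 29389 CPM in the CTRL joints (-1.16, SE 0.66, edgeR adjusted p = 0.430). That fold was -0.37 with lane as a term and turned to 0.17 in lane 2 alone. In horse 4 the CTRL joint thus held the highest levels of miR-451 and miR-486-5p of the 8 libraries together with 518 CPM of miR-16. miR-144, encoded beside miR-451, had 1 read in the 8 libraries, and miR-486-3p had none. Of the 8 tested members, 4 had a positive and 3 a negative log2 fold. The 3 were miR-486-5p, miR-92a and miR-451, and miR-16 and miR-25 were among the 4. The median of 0.62 lay between miR-486-3p, without a read, and miR-144, with its 1 read, so it does not describe the abundant members.

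The miR-15/16 family, which shares 1 seed, took 0.986, 1.76, 1.39 and 0.867% of the microRNA reads in the OA joints of horses 2, 4, 6 and 8, against 0.357, 0.0666, 0.00882 and 0.133% in the CTRL joints. Most of these reads were of miR-16 itself, so the order follows from it. The other tested members were sparse: miR-15a had 78 reads in the OA joint of horse 2 and none elsewhere, miR-195 had 22 in the OA joint of horse 6 and none elsewhere, and miR-497 had 116 in OA joints and 27 in CTRL joints. The 7 tested let-7 microRNAs took 17.8 ± 1.42% in OA joints and 20.1 ± 2.96% in CTRL joints, with 4 positive and 3 negative log2 folds and a median of 0.06. The 9 tested members of the miR-17 to miR-92 clusters took 3.06 ± 2.05% in OA joints and 3.38 ± 0.68% in CTRL joints, with 5 positive and 2 negative log2 folds.

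Lists of the inflammatory response and of leukocytes overlapped between the joints. The inflammation-induced list took 5.42 ± 0.94% in OA joints and 5.45 ± 0.73% in CTRL joints, most of it miR-21. Its member miR-146a, which dampens Toll-like receptor signalling, stood at 5681 ± 3151 CPM in the OA joint and 5087 ± 3790 CPM in the CTRL joint. The related miR-146b-5p stood at 8040 ± 6257 CPM in the OA joint and 9789 ± 2388 CPM in the CTRL joint. miR-155, of activated leukocytes, was read in 1 OA library (739 CPM, horse 6) and in 1 CTRL library (2512 CPM, horse 8). The log2 folds of all 4 tested members of this list were negative, with a median of -0.37 and none under an unadjusted p of 0.05, and that of miR-21 turned positive under other scalings.

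The myeloid leukocyte list took 1.55 ± 0.57% in OA joints and 1.64 ± 0.54% in CTRL joints. The lymphocyte list took 2.95 ± 0.53% in OA joints and 3.15 ± 0.93% in CTRL joints, most of it miR-181a and miR-28-3p, and 2 of its 8 tested members, miR-150 and miR-342-3p, had an unadjusted p under 0.05 and higher OA levels, where 7.91% of all tested microRNAs did. miR-150 was read in 2 and miR-342-3p in 3 of the 4 OA libraries. The platelet list took 3.75 ± 0.76% in OA joints and 2.76 ± 0.83% in CTRL joints, higher in the OA joint in 3 of 4 horses. The endothelial list, which shares miR-126-3p and miR-126-5p with it, took 1.12 ± 0.82% in OA joints and 0.421 ± 0.375% in CTRL joints, also higher in 3 of 4. The liver and gut list (miR-122, miR-192 and miR-215) took at most 0.577% of an OA library and 0.365% of a CTRL library, higher in the OA joint in 2 of 4 horses. Its CTRL reads were all in horse 8 and nearly all of miR-122, which had a negative log2 fold where miR-192 and miR-215 had positive ones. The skeletal muscle list took at most 0.667% of an OA library and 0.256% of a CTRL library, each from 1 microRNA in 1 horse.

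The 10 most frequent microRNAs of each library took 72.5, 65.2, 69.3 and 66.4% of its microRNA reads in the OA joints of horses 2, 4, 6 and 8, against 74.5, 75.9, 79.5 and 71.2% in the CTRL joints. The share was lower in the OA joint in 4 of 4 horses, at 68.4 ± 3.27% in OA joints and 75.3 ± 3.44% in CTRL joints (SD, n = 4 each), but the libraries overlapped. The two-sided exact permutation p was 0.0571, and 0.4 after Benjamini-Hochberg adjustment over 7 library measures. The smallest p this design allows is 0.0286, or 0.125 when the signs of the 4 pairs are permuted, which was also the value obtained. In the pair of horse 8, with lane 2 on both sides, the share was 66.4% in OA joints and 71.2% in CTRL joints.

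The number of microRNAs with a read was 83, 66, 87 and 82 in the OA joints of horses 2, 4, 6 and 8, against 76, 61, 64 and 90 in the CTRL joints (exact permutation p = 0.429). It went with depth in the CTRL joint, where the deepest library, that of horse 8, also held the most names. MicroRNA reads per 1000 spike-in reads, a measure that does not depend on library depth, were 14.6 ± 5.09 in OA joints and 12.1 ± 6.87 in CTRL joints (exact permutation p = 0.6). Their difference was 2.48, and -1.43 without horse 2. In each of these measures the difference between the joints was smaller than the spread between horses.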

How the data were processed

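Small RNA of synovial fluid vesicles was sequenced from a kit named in the labels' protocols (TriLink CleanTag). The submitters' processing notes name EquCab3.0, Bowtie, cutadapt and edgeR; versions, settings and the treatment of shared reads: not given in the sources used here. Deposited by the authors were whole-number counts per microRNA, an RPM column deposited by the authors (used only to recover library totals), and a deposited score, reads relative to the microRNA sum, whose divisor differed from the sum of microRNA counts by 0 reads. Horse microRNA rows alone (names beginning eca-) made up library sizes; spike-in rows, 43.3 ± 12.9% of an OA library and 37.3 ± 12.6% of a CTRL library, stayed out. The edgeR p-values measure the spread between libraries within the 14 groups. Each of 4 horses was sampled in most groups, and its libraries were treated as independent in the fit without the horse. Exact permutation p-values shuffle the 8 libraries between the joints and leave out the pairing. Permuting the signs of the 4 pairs keeps it. That sign-flip p was 0.625 for microRNA share, 0.5 for microRNAs with a read and 0.75 for microRNA reads per 1000 spike-in reads. Intervals and floors (3 reads over a group, the smaller of the bounds with and without TMM scaling) cover counting error only.

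Counts of 52 synovial fluid libraries were fitted in edgeR 4.0.16 (R 4.3.3, TMM, filterByExpr with a count minimum of 10, quasi-likelihood F-test, Benjamini-Hochberg adjustment). Single values were compared by exact permutation in scipy 1.17.1. Alternatives were the horse as a replicate block, lane as a covariate, lane 2 only, other scaling and filters, DESeq2 1.42.0, limma 3.58.1 (prior count 2), the 8 libraries alone, and each horse left out. The labels give both joints of a number to 1 horse, so the numbers pair the libraries. Same-horse deviations correlated at 0.070, 0.069, -0.056 and -0.041. Those of different horses ran from -0.10 to 0.12, so these correlations do not set the same-horse pairs apart. The fit was also run on simulated counts. These had independent libraries, no horse or lane effects, and changes only in microRNAs above the median level. They therefore do not show how the fit treats the sparse microRNAs, the repeated horses or the lanes of these data.

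Named microRNAs were those with an unadjusted p under 0.05, the 12 higher and 12 lower with the smallest p, the 10 most abundant, examples from 20 lists, and their arms, copies and seed relatives. miR-423-3p, miR-27a, miR-744, miR-98, miR-199b-5p and miR-99b were named after their values were seen. The comparison, members and lists were chosen with earlier results of these data known. Sequences are not used here.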

Additional observations from a re-analysis of the deposited data

Results flagged for a closer look

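In 64 groups of 4 libraries, 13 held 1 library set apart from the other 3 by Dixon's criterion, which chance meets in about 1 of 20 groups of measured values. That rate does not hold for a group with 3 values at 0, where the criterion is met by construction, nor for microRNAs chosen for a small p. Of the 13, 9 are microRNAs read in 1 library of a joint or mostly in 1. Except for miR-150 and miR-487b, the other 3 libraries of the joint were at 0. In the OA joint they were miR-196b in horse 8 (4152 CPM), miR-150 in horse 4 (3881 CPM), miR-211 in horse 4 (3692 CPM) and miR-192 in horse 2 (2035 CPM). In the CTRL joint they were miR-8993 in horse 4 (27747 CPM), miR-1 in horse 2 (2562 CPM), miR-487b in horse 8 (1256 CPM), and miR-342-3p and miR-215 in horse 8, each at 7.80 CPM from 1 read where the other CTRL libraries had none.

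The CTRL library of horse 8 stood apart from the other CTRL libraries in depth, with 128178 microRNA reads, in microRNA as a share of the library total, at 1.19%, and in microRNA reads per 1000 spike-in reads, at 22.3. The OA library of horse 8 stood apart in its total of 9976257 reads.

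In the main fit the difference between the joints in miR-16 at time point 56 departed from the mean of the other time points. The difference of differences was 3.89 on the log2 scale (edgeR adjusted p = 0.0249). This call was lost with lane as a term, without horse 4 and without horse 6, with the values given in the account above.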

How the results depend on the processing

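Depth limits the CTRL side: 3 of 4 libraries hold 11341 to 17952 microRNA reads and the fourth 128178, and lane 1 occurs only in the CTRL joint here. At an adjusted p of 0.05, edgeR's count of 0 became 1 with no scaling, 1 in limma and 19 in DESeq2. The count of 14 at an unadjusted p under 0.05 was 3 of 192 in lane 2 alone, 23 in DESeq2, 9 in limma, 2 of 65 with the 8 libraries alone, 5 of 65 with these and the replicate block, 13 with the replicate block in the full fit, and 4 to 9 with a horse left out. The replicate block changed no call of the joint difference itself. Against the other time points, the 1 called became 4 with the replicate block, 0 with lane as a covariate and 0 to 1 with a horse left out, and the 5 at an unadjusted p became 5 to 9. Against time point 0, the 17 became 11 to 15 with a horse left out. On TMM-scaled CPM 1 microRNA lay below in every library and 4 were lower in 4 of 4 horses.

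The sign of small, uncalled log2 folds turned. With lane as a covariate miR-21 was 0.085, and with the block added miR-21 was 0.11 and let-7a 0.20. In lane 2 alone miR-21 was 0.24, miR-486-5p 0.17, and miR-103 and miR-107a -0.11. With RLE scaling miR-21 was 0.0096, miR-199a-3p and miR-199b-3p 0.035 and miR-22 0.19. With no scaling miR-21 was 0.11, let-7a 0.084, the miR-199 pair 0.10, miR-22 0.26 and miR-26a 0.084. With no filter miR-22 was 0.035, and in limma 0.22. In DESeq2 miR-21 was 0.0087, the miR-199 pair 0.034 and miR-22 0.19. With the 8 libraries alone miR-21 was 0.26, let-7a 0.26, the pair 0.26, miR-22 0.36 and miR-26a 0.29; with the block added they were 0.28, 0.25, 0.24, 0.72 and 0.28. The cause of these turns was not tested. With a horse left out, the log2 fold of miR-22 ran from -0.43 to 0.58 and that of let-7a from -0.36 to 0.019. The difference between the joints, OA minus CTRL, ran from -17420 to 31648 in microRNA reads, from -0.11 to 0.48 percentage points in microRNA share, and from -1.43 to 6.17 in microRNA reads per 1000 spike-in reads. A microRNA with no read in the libraries of a setting has no value there.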
